A study of Mus musculus with 12 samples.

Results

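The genes described here store, take up and export iron in the liver. They are the rows of the Ribo-seq table whose symbol is Fth1, Ftl1, Ncoa4, Tfrc, Tfr2, Steap3, Slc40a1, Hamp, Hamp2 or Ireb2, which are 10 of its 25033 entries. Ribo-seq reads the short pieces of mRNA that stay covered by a ribosome while the rest is digested, and these are called footprints. All livers were from male C57BL/6 mice, 16 weeks old, which had been on their feed for 8 weeks. The HFD group ate a high-fat diet (n = 3 libraries), and the LYC group ate the same diet with 0.33% lycopene by weight (n = 3 libraries), lycopene being the red carotenoid of tomato. Both groups were thus on high-fat feed, and mice on standard feed were not analysed here. The question is which genes of iron handling carried more or fewer footprints when lycopene was added to the diet. In the labels the LYC treatment mentions the high-fat diet only, and the lycopene feed was taken from the titles and the study's methods. The study describes the libraries as 3 biological replicates per group. The labels also say that material of the groups was pooled before the libraries were made, so the p-values measure the spread between these libraries, which may be technical.

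Iron enters liver cells mainly on transferrin, is reduced in the endosome, and is kept in ferritin, a hollow shell of heavy and light chains. Excess iron leaves through ferroportin, and the liver peptide hepcidin closes that route by causing ferroportin to be degraded. Iron regulatory proteins bind a stem-loop, the iron-responsive element, in the mRNA of several of these genes when iron is low, which blocks translation when the element lies before the coding sequence and stabilises the mRNA when it lies after it.

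This stem-loop is shown first, because it divides the genes into those whose translation it can block and the one whose mRNA it can stabilise. RefSeq transcripts of GRCm38.p6, the build of the deposited data, were searched on the transcribed strand for a 6-base loop CAGTGN between 5 bases on each side that had to pair, G to U pairs allowed, with an unpaired C just before the stem. The letters were found in the 5′ UTR of 3 of the 10 genes and, 4 times, in the 3′ UTR of Tfrc. Of all genes with such a region, 0.107% held the letters in the 5′ UTR (21 of 19563) and 0.543% in the 3′ UTR (106 of 19536). A match is a description of the letters and not a measured binding site. Each sequence below is 27 bases of the mRNA written as DNA, 5′ to 3′, with the loop in capitals.
Fth1, 5′ UTR, exon 1, chr19:9982733-9982759, plus strand: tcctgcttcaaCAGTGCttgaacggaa
Ftl1, 5′ UTR, exon 1, chr7:45459780-45459806, minus strand: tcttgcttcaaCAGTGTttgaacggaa
Slc40a1, 5′ UTR, exon 1, chr1:45925466-45925492, minus strand: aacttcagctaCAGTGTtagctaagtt
Tfrc, 3′ UTR, exon 19, chr16:32631220-32631246, plus strand: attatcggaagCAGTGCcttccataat
Tfrc, 3′ UTR, exon 19, chr16:32631599-32631625, plus strand: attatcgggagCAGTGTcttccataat
Tfrc, 3′ UTR, exon 19, chr16:32631664-32631690, plus strand: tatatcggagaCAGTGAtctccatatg
Tfrc, 3′ UTR, exon 19, chr16:32631711-32631737, plus strand: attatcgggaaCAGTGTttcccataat

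That the values are footprints rests on the label of the table alone, since a second table, labelled RNA, shares many of its counts gene by gene. Depth differed between the groups. The deposited values are RPKM, which divides reads by gene length and by the library total, and the reads behind them were recovered from the steps between values. The HFD libraries held 834410 to 4405541 reads and the LYC libraries 311050 to 412116 reads. A single read per kb came to 0.227 to 1.20 RPKM in HFD and to 2.43 to 3.21 RPKM in LYC, so low genes are less precise in LYC. For tests, RPKM was divided by a TMM factor, edgeR's scaling between libraries, and compared on the log2(value + 1) scale with limma's moderated test. A gene was called when its log2 fold change was above 1 or below -1 with an unadjusted p under 0.01, and adjusted p-values are Benjamini-Hochberg values over all 5775 genes tested. Genes were tested if 3 or more libraries held, relative to the library total, at least as many reads as 10 reads make in a library of median size. Over those genes the median log2 fold change stood at -0.10, or at -0.36 with the RPKM as deposited, without TMM.

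In LYC against HFD, footprints rose on Fth1 and Ncoa4 and fell on Tfr2 and Steap3. Thus 4 of the 9 iron genes tested were called, beside 13.3% of all genes tested, 2 of them higher, beside 7.00% of all genes, and 2 lower, beside 6.30%. Steap3 passed the read filter through its HFD libraries alone, with no LYC library past it, so it could be tested only because it was high in HFD and its call is given as a description. The filter was passed in this way by 302 of all genes, with 149 of them called lower and none higher. The other 8 iron genes tested passed with 2 or 3 LYC libraries. Hamp2 had too few reads to be tested in this way. The 9 genes had a median log2 fold change of 0.040. With the RPKM as deposited the middle gene was Slc40a1, at -0.25. Without LYC1 or LYC2 it was Ireb2, at -0.039 and -0.069, so the sign of this median was not stable.

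**Figure D1:**
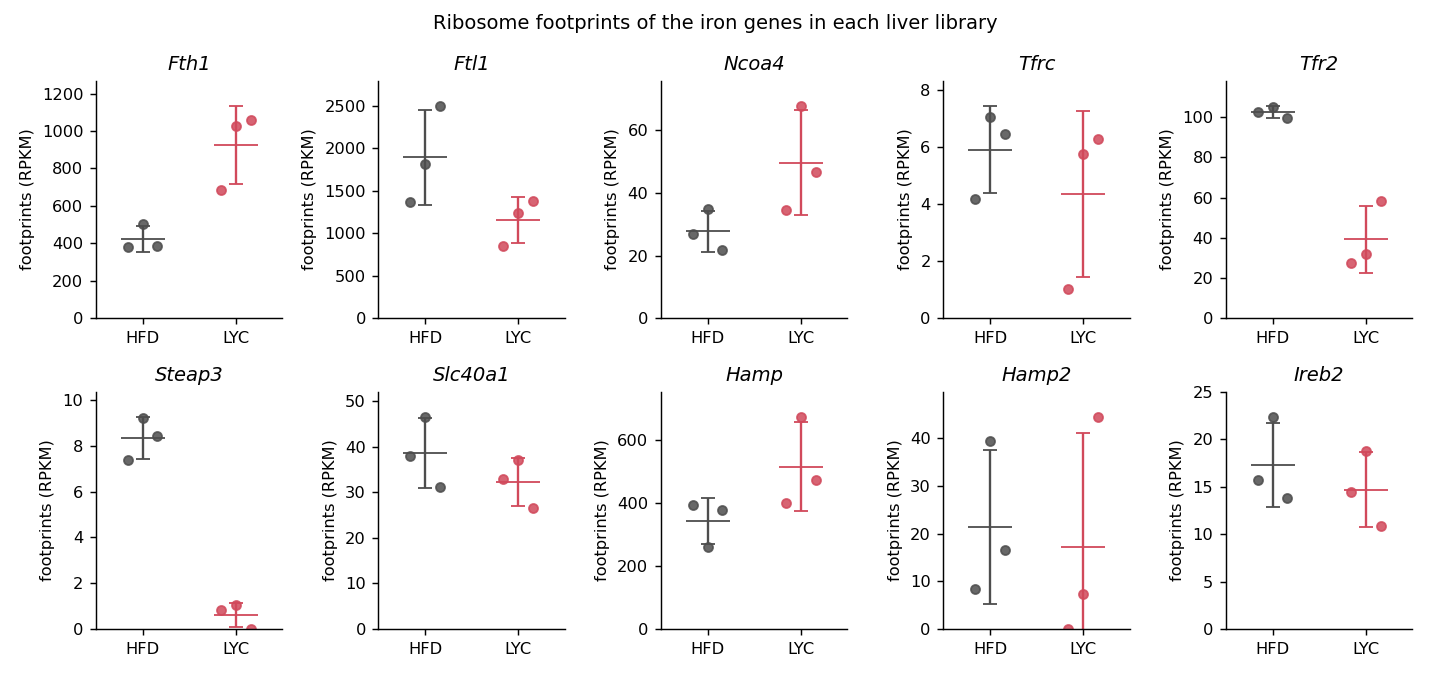
Footprints in RPKM (vertical axes, each from 0) of the 10 iron genes in the 3 HFD and 3 LYC libraries, with a dot per library and the mean ± SD as a bar, cut at 0 for Hamp2 in LYC. The groups stand apart for Fth1, Hamp, Tfr2 and Steap3, and overlap for the other 6 genes.

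**Figure D2:**
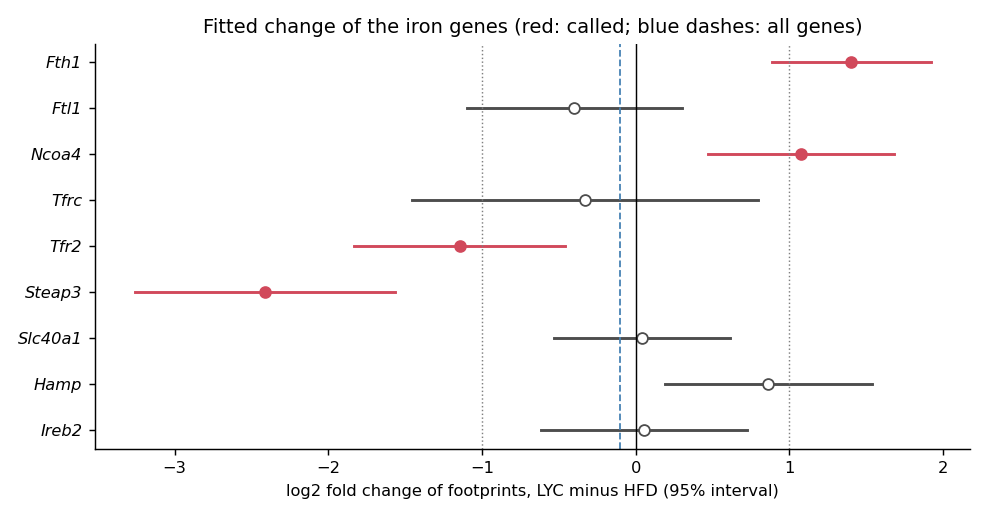
Fitted log2 fold change of footprints, LYC minus HFD, with 95% intervals of limma for the 9 genes tested. Fth1 (1.40) and Ncoa4 (1.07) are called higher and Tfr2 (-1.15) and Steap3 (-2.41) lower, drawn in red, and the dashed line marks the median of all genes (-0.10).

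Fth1 encodes the ferritin heavy chain, which oxidises iron as it enters the shell (chr19:9982646-9985111, plus strand, 4 exons). Its footprints were 381, 505 and 385 RPKM in the HFD libraries and 683, 1028 and 1058 RPKM in the LYC libraries, from 485 to 3362 and 407 to 659 reads. All LYC libraries lay above all HFD libraries. The mean was 423 ± 70.7 RPKM in HFD and 923 ± 208 RPKM in LYC (SD, n = 3 each), and the fitted log2 fold change was 1.40 ± 0.23 (SE, limma adjusted p = 0.00787). Fth1 was called in each of the 6 fits that left out a library, at 1.28 to 1.51, and with the RPKM as deposited, at 1.11.

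Ftl1 encodes the light chain, which helps the iron core to form (chr7:45457944-45459886, minus strand, 4 exons). Its footprints were 1371, 1811 and 2492 RPKM in HFD and 855, 1243 and 1376 RPKM in LYC, from 2017 to 7737 and 327 to 550 reads. The groups overlapped by a narrow margin, between 1371 RPKM in HFD1 and 1376 RPKM in LYC3. Its log2 fold change of -0.40 had a 95% interval of -1.10 to 0.30 (limma adjusted p = 0.417), so no change was detectable. Removing the trend of fold change with gene length gave -0.71, and leaving out HFD3 gave -0.16, both uncalled.

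The 2 ferritin chains therefore stood in a different ratio in the 2 groups, a comparison chosen after the values were seen. HFD1, HFD2 and HFD3 held 2.31, 2.30 and 4.16 Ftl1 reads per Fth1 read. LYC1, LYC2 and LYC3 held 0.803, 0.776 and 0.835. This ratio is taken within a library, so no scaling between libraries enters it, and the groups did not overlap. In geometric means the ratio was 3.49 times lower in LYC, and an exact two-sided permutation test gave p = 0.1, the smallest value that 3 against 3 libraries allow. Without HFD3 the log2 ratio still differed by -1.52. Which chain was higher in LYC depended on the length used. By mean RPKM as deposited Ftl1 lay above Fth1 in both groups, on gene lengths of 970 bases for Ftl1 and 1511 for Fth1, whose RefSeq transcript has 942 bases. With all reads of a gene divided by the length of its coding sequence, as TMM-scaled RPKM, Fth1 had 1044 and Ftl1 3025 in HFD, and 2783 and 2231 in LYC. Where in the gene these reads lay is not known. Both mRNAs carry a loop in the 5′ UTR, printed above.

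**Figure D3:**
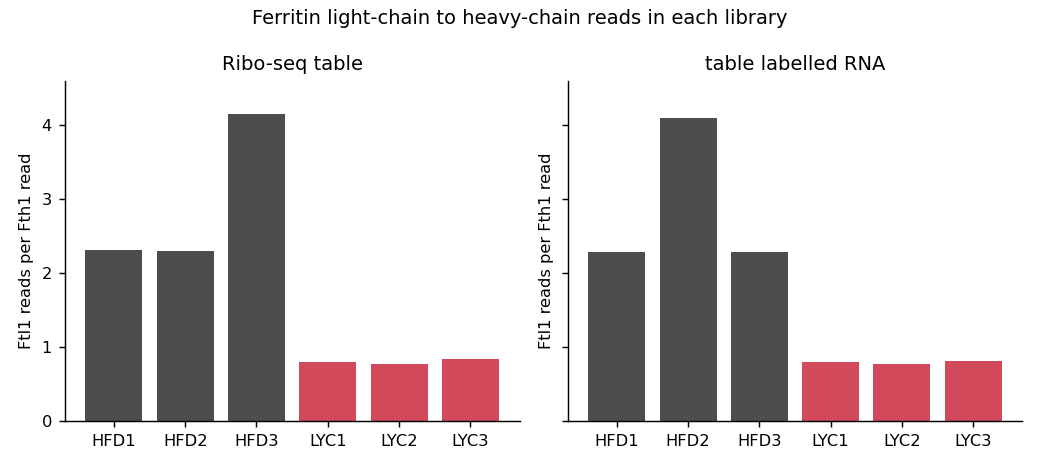
Ftl1 reads per Fth1 read (vertical axis, from 0) in each library, in the Ribo-seq table at left and in the table labelled RNA at right. The 3 LYC bars lie between 0.776 and 0.835 in the Ribo-seq table, and every HFD bar there is at 2.30 or above.

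Reads on the ferritin chains may have been shared with copies elsewhere in the genome. Of the 28-base windows of the Ftl1 coding sequence, 89.3% occur again, in 25 places, the largest match being the pseudogene Ftl1-ps1 at chr13:74406604-74407155. For Fth1 the share was 26.4%. How the authors counted reads with several places is not given in the sources used here, so the level of Ftl1 is uncertain. The part of these copies in the ratio was not tested.

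Ncoa4 encodes the receptor that carries ferritin to the lysosome, where its iron is released (chr14:32165789-32179855, plus strand, 10 exons). Its footprints were 26.9, 34.8 and 21.6 RPKM in HFD and 34.5, 67.6 and 46.8 RPKM in LYC, from 73 to 619 and 55 to 85 reads. In RPKM as deposited LYC1 lay just below HFD2, and after TMM scaling the 3 LYC libraries lay above all HFD libraries. In the fit Ncoa4 was higher by 1.07 ± 0.27 on the log2 scale (SE, limma adjusted p = 0.0357). This call was near its limits: it was lost with the RPKM as deposited (0.79), with a pseudocount of 5 (0.97), and without HFD1 (1.08), HFD2 (1.09), HFD3 (0.93) or LYC2 (0.90), and at the stricter limit of p under 0.001. Of its coding windows 97.0% occur again in the pseudogene Ncoa4-ps at chr12:119260978-119262855, so its reads too may have been shared.

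Tfr2 encodes transferrin receptor 2, which hepatocytes use to sense transferrin-bound iron (chr5:137569840-137588081, plus strand, 20 exons). Its footprints were 103, 105 and 99.5 RPKM in HFD and 27.5, 32.1 and 58.4 RPKM in LYC. These rest on 283 to 1580 reads in HFD and 34 to 82 in LYC. Every LYC library lay below every HFD library, and the LYC mean of 39.3 ± 16.7 RPKM was 2.61 times lower than the HFD mean of 103 ± 2.87 RPKM (SD, n = 3 each). Its fitted log2 fold change was -1.15 ± 0.30 (SE, limma adjusted p = 0.0442). The direction held in every alternative, but the call was lost without HFD1 (-1.12), HFD3 (-1.15), LYC1 (-1.02) or LYC2 (-0.98), and at the stricter limit of p under 0.001.

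Tfrc encodes transferrin receptor 1, the general uptake receptor, whose mRNA carries the 4 elements printed above (chr16:32608896-32632794, plus strand, 19 exons). Its footprints were the lowest of the 10 genes in HFD, at 4.17, 7.07 and 6.46 RPKM, and were 1.01, 5.78 and 6.30 RPKM in LYC. Only 2, 9 and 13 reads stood behind the LYC values. For Tfrc the log2 fold change was -0.33 with a 95% interval of -1.45 to 0.79 (limma adjusted p = 0.686). The sign rested on LYC1, since without that library the value was 0.23. A change of Tfrc was not detectable at this depth, and the interval holds changes past the limit of a call in the lower direction.

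Steap3 encodes the ferrireductase that reduces iron in the endosome so that it can pass into the cytosol (chr1:120226414-120258878, minus strand, 5 exons). Its footprints were 7.39, 9.22 and 8.43 RPKM in HFD, from 63, 127 and 22 reads. The LYC libraries held 1, 1 and 0 reads, or 0.810, 1.03 and 0 RPKM, and none of them passed the read filter. Pooled over libraries and set against TMM-scaled library totals, reads were 11.5 times lower in LYC, with an exact 95% interval of 3.14 to 95.5 that covers counting error only. Limma gave a log2 fold change of -2.41 ± 0.37 (SE, limma adjusted p = 0.00663), a value that the pseudocount of 1 pulls towards 0 and that was -1.14 with a pseudocount of 5. It was called in the 4 fits without a library that kept it. Without HFD2 or HFD3 it did not pass the filter on reads and was not tested.

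Slc40a1 encodes ferroportin, the exporter of iron from the cell (chr1:45908070-45925594, minus strand, 8 exons). Its footprints were 38.0, 46.5 and 31.2 RPKM in HFD and 33.0, 37.1 and 26.6 RPKM in LYC, with overlapping groups. Its log2 fold change was 0.040 with a 95% interval of -0.53 to 0.61 (limma adjusted p = 0.933), which leaves out a change as large as the limit of a call. With the RPKM as deposited the sign turned, at -0.25. Slc40a1 carries the same kind of loop in its 5′ UTR as Fth1 and Ftl1, whose fitted intervals were 0.88 to 1.92 and -1.10 to 0.30. The differences between these genes, and the part of the loop in them, were not tested.

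Ireb2 encodes iron regulatory protein 2, which binds these loops (chr9:54863755-54912534, plus strand, 22 exons). Its footprints were 15.7, 22.4 and 13.8 RPKM in HFD and 14.4, 18.8 and 10.9 RPKM in LYC. Its log2 fold change was 0.052 with a 95% interval of -0.62 to 0.72 (limma adjusted p = 0.925), and -0.23 with the RPKM as deposited. Its groups overlapped over most of their ranges.

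Hamp encodes hepcidin, the hormone that closes ferroportin (chr7:30942368-30944029, minus strand, 3 exons). Its footprints were 395, 260.0 and 378 RPKM in HFD and 399.6, 673 and 472 RPKM in LYC, from 128 to 465 and 64 to 85 reads. Every LYC library lay above every HFD library, LYC1 only just above HFD1. Hamp had a log2 fold change of 0.86 ± 0.30 (SE, 95% interval 0.19 to 1.54), with an unadjusted p of 0.0178 and a limma adjusted p of 0.0944, and Hamp was not called. Leaving out a library gave 0.51, without HFD2, to 0.99. The RPKM ranges of the groups stood apart for 4 of the 10 iron genes, beside 37.4% of all genes tested, LYC above HFD for Fth1 and Hamp, beside 9.87%, and LYC below HFD for Tfr2 and Steap3, beside 27.5%. Hamp is a short gene, and its value was 0.091 when the trend of fold change with gene length was removed.

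Hamp2 is the second hepcidin gene of the mouse, near Hamp on the same chromosome (chr7:30922372-30924181, minus strand, 3 exons). A footprint can be placed on either gene wherever their sequences are alike. Of the 28-base windows of either coding sequence, 42.2% occur in the mRNA of the other, and reads of that kind cannot be told apart.

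Hamp2 had 8.39, 39.5 and 16.5 RPKM in HFD, from 10, 76 and 6 reads. In LYC it had 0, 7.36 and 44.4 RPKM, from 0, 1 and 8 reads. The groups overlapped and an exact two-sided permutation test of the mean RPKM gave p = 0.7. The Hamp2 share of the reads on both genes was 2.24%, 14.0% and 4.48% in HFD and 0%, 1.16% and 9.20% in LYC. A share of 0 of 64 reads in LYC1 has an exact 95% upper bound of 5.60%. When reads on both genes were summed, a choice made after the data were seen, the log2 fold change was 0.81 (limma adjusted p = 0.0881) and 0.80 with edgeR (adjusted p = 0.057), so the pair was not called.

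**Figure D4:**
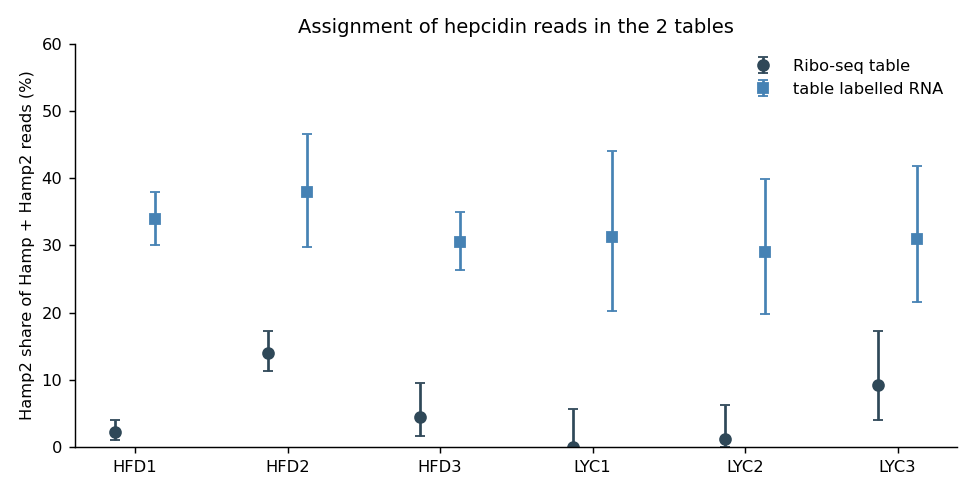
Hamp2 as a percentage of Hamp and Hamp2 reads (vertical axis) in each library of the Ribo-seq table (circles) and of the table labelled RNA (squares), with exact 95% binomial intervals that cover counting error only. The circles lie between 0% and 14.0% and the squares between 29.1% and 38.0%.

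A second deposited table is labelled RNA, and its hepcidin counts show how it relates to the first. Its LYC1, LYC2 and LYC3 columns held 64, 86 and 87 reads on Hamp and Hamp2 together, the very sums of the Ribo-seq table, but placed 31.2%, 29.1% and 31.0% of them on Hamp2. Of the genes with a read in either table, 75.3%, 75.3% and 74.9% had the same count in LYC1, LYC2 and LYC3 of both. For Tfr2 the LYC counts were 37, 34 and 82 in both tables, and for Tfrc 2, 9 and 13. The HFD columns shared fewer counts, and under other numbers, at 30.0%, 22.8% and 46.1% of genes for the Ribo-seq libraries HFD1, HFD2 and HFD3 and the columns labelled RNA HFD3, HFD1 and HFD2. The tables were not the same in depth, with 278692 to 365715 reads on listed genes in the LYC libraries of the Ribo-seq table and 582184 to 687242 in those labelled RNA. The table labelled RNA was therefore not used as a measure of mRNA, and whether a footprint difference reflects more mRNA or more ribosomes per mRNA was not tested. Fitted with edgeR's quasi-likelihood test, it called Fth1 (log2 fold change 1.42) and Ncoa4 (1.13) higher and Tfr2 (-1.07) and Steap3 (-3.47) lower, beside 16.6% of all 5921 genes called, 9.31% higher and 7.33% lower. With counts shared in this way, this adds no independent support.

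The levels of the 10 genes ran over more than 2 orders of magnitude within each group. In HFD the order of mean RPKM was Ftl1, Fth1, Hamp, Tfr2, Slc40a1, Ncoa4, Hamp2, Ireb2, Steap3 and Tfrc. Neighbours whose library ranges overlapped in HFD were Fth1 and Hamp, and each neighbouring pair from Slc40a1 to Ireb2. Ftl1 stood at percentile 99.7 of the genes above 0 and Tfrc at 64.2. In LYC the ranges of Ftl1 and Fth1 overlapped, Ncoa4 ranked above Tfr2 with overlapping ranges, and Steap3 ranked last, at percentile 12.7, with a range that overlapped that of Tfrc.

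For the genes that control hepcidin 31 names were listed, 29 of them in the Ribo-seq table, since some genes were listed under an older and a newer symbol. Of the 19 tested, 3 were called, each lower, beside 13.3% of all genes called and 6.30% called lower. The median log2 fold change of the 19 was -0.28, beside -0.10 for all genes. This median was -0.13 without HFD1, -0.51 without LYC1, -0.47 without LYC2, -0.52 without LYC3, -0.51 with the RPKM as deposited and -0.085 with the length trend removed. Hjv, the hemojuvelin coreceptor of bone morphogenetic protein signals, had 26.0, 41.4 and 39.1 RPKM in HFD and 1.25, 11.1 and 7.20 RPKM in LYC (log2 fold change -2.32 ± 0.54, SE, limma adjusted p = 0.0302). Hjv was called in every alternative fit, though not at the limit of p under 0.001. These genes passed the read filter mainly through HFD, since no LYC library of Bmpr1a and 1 each of Hjv and Hfe was past it, so the count of genes called lower is a description. Bmpr1a, a receptor of the same signals, had a log2 fold change of -1.65 (limma adjusted p = 0.0276), lost without HFD2, with a pseudocount of 5 and at p under 0.001. Hfe, a partner of Tfr2 in iron sensing, had -1.01 (limma adjusted p = 0.0669), and its call was lost in each of the 6 fits without a library, at -1.17 to -0.87, with a replicate block, with edgeR and DESeq2, with a pseudocount of 5, with no filter and with the length trend removed. Tmprss6, the protease that cuts hemojuvelin, was looked at after its values were seen and fell just short of a call, with a log2 fold change of -1.08 and an unadjusted p of 0.0102 (limma adjusted p = 0.069). At an unadjusted limma p under 0.05, 2 genes of the list were higher and 6 lower. Chosen in the same way, the 2 higher were Fgl1 (0.87) and Creb3l3 (0.67), neither of them called. With the RPKM as deposited, 6 genes of this list were called lower. Without LYC2 the list had 2 genes called higher and 2 lower, and the number called lower was 1 without HFD2 and 5 without LYC3. Over all genes, 364 were called lower in the main fit, 651 with the RPKM as deposited and 710 with no filter. Without HFD2, LYC1, LYC2 or LYC3 that number was 187, 464, 487 and 707. The number of all genes called higher was 404 in the main fit, 235 with the RPKM as deposited and 462 without LYC2. These all-gene counts also stand beside the lists below.

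Among iron regulatory proteins and genes of ferritin turnover, all 15 listed were tested and 3 were called, each higher, beside 7.00% of all genes called higher. The median log2 fold change was 0.32, beside -0.10 for all genes, and 0.035 beside -0.36 with the RPKM as deposited. Fbxl5, the iron-sensing ubiquitin ligase subunit that has iron regulatory protein 2 degraded, had 7.07, 9.46 and 5.46 RPKM in HFD and 13.3, 20.3 and 28.9 RPKM in LYC (log2 fold change 1.62 ± 0.33, SE, limma adjusted p = 0.0184). Skp1a, an adaptor shared by many ligases of this kind, rose by 1.08, and Gabarap, a protein of autophagosome membranes, by 1.10 (limma adjusted p = 0.0151 and 0.0206). With the RPKM as deposited, and with the length trend removed, 1 gene of the list was called. Gabarap also lost its call without HFD2 and without LYC1, in a range of 0.94 to 1.21 over the fits that left out a library.

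For other carriers of iron 23 names were listed, 21 of them in the Ribo-seq table. Transferrin itself was not among these 21, so the values of this list do not cover it. The 10 genes tested gave no call by limma or edgeR, beside 13.3% of all genes called by limma. They had 1 unadjusted p under 0.05 and a median log2 fold change of -0.32. The sign of this median rested on LYC2, since it was 0.017 without that library, and it was -0.67 without LYC3. The members with most reads were Cp, ceruloplasmin, a plasma oxidase of iron (-0.75, unadjusted p = 0.0178), and Lrp1, an endocytic receptor with many ligands (-0.083). With the RPKM as deposited, and with no filter, 1 gene of this list was called lower.

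Heme synthesis, the main use of iron outside storage, had 2 genes higher and 1 lower among 11 tested of 13 listed, beside 7.00% and 6.30% of all genes, and a median of -0.049. This median was -0.17 without HFD1, -0.019 without HFD2, -0.085 without HFD3, -0.089 without LYC1, -0.34 with the RPKM as deposited and -0.20 with the length trend removed. The deposited RPKM gave 1 gene higher and 2 lower, edgeR and DESeq2 each called 3 higher and 2 lower, and a second gene was called lower without LYC1 and without LYC3. Alas1, the rate-limiting enzyme of liver heme synthesis, had 125, 121 and 85.6 RPKM in HFD and 238, 296 and 219 RPKM in LYC (log2 fold change 1.48 ± 0.24, SE, limma adjusted p = 0.00748). Clpx, a mitochondrial unfoldase that acts on this enzyme, fell from 81.6, 84.0 and 67.3 RPKM to 17.6, 24.5 and 25.2 RPKM (-1.47, limma adjusted p = 0.00748). Both were called in every alternative fit. Alas2, the form of red cell precursors, whose 5′ UTR holds the loop letters, was called at 1.01 and lost its call without HFD1, HFD2, LYC1 or LYC3, at 0.83 to 1.17 over the fits that left out a library, and also with the RPKM as deposited, a pseudocount of 5 or the length trend removed. Reads of beta-globin (Hbb-bs), a red cell marker, had a log2 fold change of 0.70, with an unadjusted limma p under 0.05, and those of alpha-globin (Hba-a2) -0.39. Neither globin was called, and their part in the Alas2 value was not tested.

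Heme breakdown, transport and scavenging gave 1 gene higher and 2 lower among 12 tested of 17 listed, beside 7.00% and 6.30% of all genes. The median was -0.092, and ran from -0.21 without LYC2 to -0.014 without LYC3 over the fits that left out a library. It was -0.20 without HFD1, -0.19 without HFD2 and -0.15 with no filter. With the RPKM as deposited it was -0.37, beside -0.36 for all genes. Por, the reductase that supplies electrons to heme oxygenase and to cytochromes P450, rose from 29.9, 44.7 and 33.2 RPKM to 108, 116 and 154 RPKM (log2 fold change 2.07 ± 0.24, SE, limma adjusted p = 0.00167). Hpx, hemopexin, the plasma protein that binds free heme, fell from 2011, 2614 and 2319 RPKM to 695, 749 and 861 RPKM (-1.29 ± 0.24, SE, limma adjusted p = 0.0127). Both held in every alternative fit. Slc46a1, a folate transporter that was also named a heme carrier, was called at -2.18 and lost its call without HFD2, HFD3, LYC1 or LYC2 and with no filter, at -2.91 to -1.67 over the fits that left out a library, and 1 of its LYC libraries was past the read filter.

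For iron-sulfur cluster assembly 34 names were listed, 30 of them in the Ribo-seq table, since some genes were listed under an older and a newer symbol. Of the 17 tested, 3 were called, each higher, beside 7.00% of all genes called higher, and the median of the 17 was 0.32. This median was -0.098 without LYC1, 0.15 without LYC3, -0.044 with no filter, 0.037 with the RPKM as deposited and 0.091 with the length trend removed. A gene called lower was added without LYC1, LYC2 or LYC3, with the RPKM as deposited, with no filter and with a replicate block. Fdx1, a ferredoxin of mitochondria, had a log2 fold change of 1.45, Hspa9, the mitochondrial chaperone of the cluster scaffold, 1.22, and Glrx3, a cytosolic glutaredoxin that carries clusters, 1.52 (limma adjusted p = 0.0211, 0.0211 and 0.0201). Their 3 LYC libraries lay above their 3 HFD libraries in each case, beside 9.87% of all genes tested. The 3 genes were picked because they were called, so this is a description. These calls held in every fit that left out a library, and Hspa9 lost its call with the RPKM as deposited. None of the 3 passed at the stricter limit of p under 0.001.

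Ferroptosis, cell death by iron-dependent lipid peroxidation, had 2 genes higher and 2 lower among 17 tested of 20 listed, beside 7.00% and 6.30% of all genes. The median was -0.21, and it was 0.13 without LYC3, -0.086 without HFD3 and -0.49 with the RPKM as deposited. With edgeR it was -0.12 and with DESeq2 -0.11. The deposited RPKM gave 1 gene higher and 4 lower, and without HFD2 or HFD3 1 was higher and none lower. Without HFD1, LYC1 or LYC2, 1 was higher and 1 lower. Gpx4, the peroxidase that removes lipid peroxides, had 220, 326 and 251 RPKM in HFD and 80.4, 163 and 80.1 RPKM in LYC (log2 fold change -1.06, limma adjusted p = 0.0432). Acsl4, which activates polyunsaturated fatty acids, was at 1.22, Lpcat3, which places them in phospholipids, at -1.19, and Vdac2, a channel of the outer mitochondrial membrane, at 1.72. The call of Vdac2 held in every alternative fit. Those of Acsl4 and Lpcat3 held in only 1 of the 6 fits that left out a library, the fit without LYC3 (Acsl4 1.01 to 1.52 and Lpcat3 -1.58 to -0.95 over the 6 fits), and that of Gpx4 in 2, without HFD1 and without LYC2 (-1.33 to -0.90 over the 6 fits). Acsl4 also lost its call with the RPKM as deposited, and Lpcat3 with no filter.

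**Figure D5:**
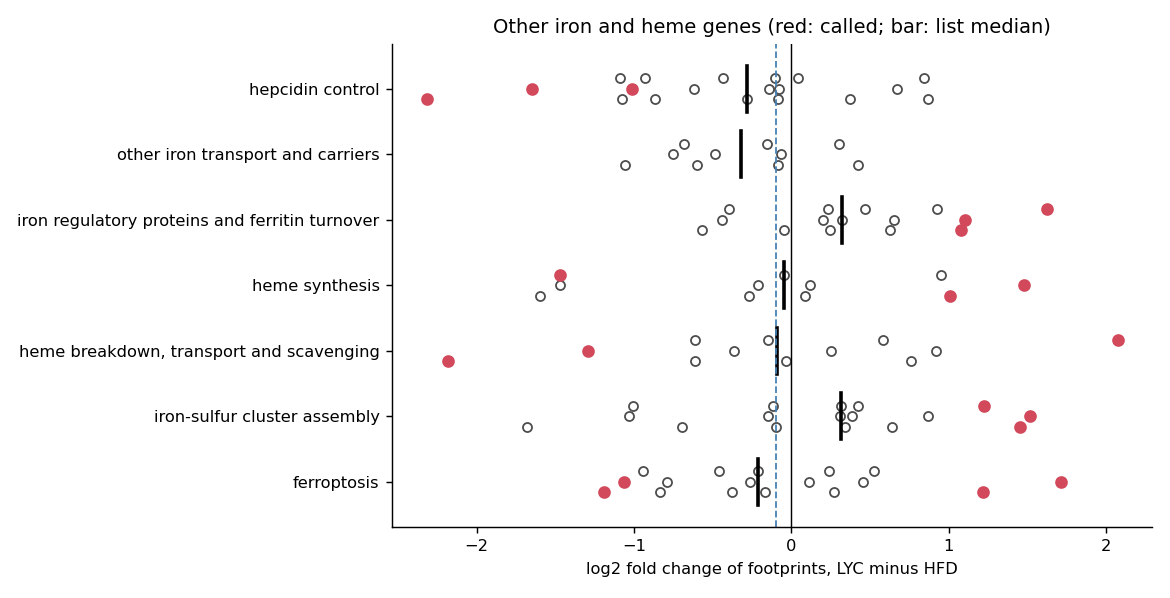
Log2 fold change of footprints, LYC minus HFD, for each tested gene of the 7 other iron and heme lists, with called genes in red, list medians as black bars and the median of all genes (-0.10) as a dashed line. The lists of ferritin turnover and of iron-sulfur clusters have called genes only at the right, that of hepcidin control only at the left.

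Liver holds other cells that handle iron, and in bulk tissue fewer cells of a type and less RNA per cell cannot be told apart. All 10 hepatocyte markers were detected, and their summed level overlapped between groups (38423 to 43086 TMM-scaled RPKM in HFD and 30462 to 43355 in LYC), with 2 called higher, Cps1 and Tat, beside 7.00% of all genes. The call of Cps1 held in 1 of the 6 fits that left out a library, the fit without LYC3 (0.90 to 1.36 over the 6 fits), and was lost with the RPKM as deposited and with no filter. The 10 markers of Kupffer cells, macrophages that recycle iron and use Slc40a1 to export it, summed to 174 to 194 in HFD and 187 to 218 in LYC. None of the 8 tested was called by limma, beside 13.3% of all genes, 2 had an unadjusted p under 0.05 and 1 was called by edgeR. Limma called 1 Kupffer marker higher and 1 lower without LYC3, and 1 lower with the RPKM as deposited and with no filter. The markers of sinusoidal endothelium summed to 84.2 to 122 in HFD and 43.9 to 191 in LYC. None of the 7 tested was called by limma or edgeR, beside 13.3% of all genes called by limma, and 1 had an unadjusted p under 0.05. Of these markers 2 were called higher without LYC2, which held the lowest sum, and 1 was called lower without LYC3. Erythroid markers summed to 607 to 1134 in HFD and 919 to 1087 in LYC, Alas2 being the one called of 3 tested, beside 7.00% of all genes called higher. At an unadjusted limma p under 0.05, 2 of these 3 were higher and none lower. The acute phase response can raise Hamp, and among 6 of its genes tested Orm1 was called higher (1.13) and Lbp lower (-2.24), beside 7.00% and 6.30% of all genes. The summed level of the listed genes was 2035 to 2900 in HFD and 1424 to 2460 in LYC. Orm1 lost its call without HFD2 or LYC1, with the RPKM as deposited and with the length trend removed. The part of these cells in the iron genes was not tested.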

How the data were processed

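The 6 Ribo-seq libraries (3 HFD and 3 LYC) and the 6 libraries labelled RNA were taken as deposited. Per the study's methods, reads were trimmed and filtered by the authors (cutadapt, bowtie2), placed on GRCm38/mm10 by STAR and counted per gene by FANSE2; versions, annotation and the handling of reads with several places are not given in the sources used here. For Ribo-seq the authors deposited RPKM values, and the libraries labelled RNA have counts of reads, also with RPKM, deposited by the authors. All value columns were mapped to samples.

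Within a library, RPKM steps give whole reads. With gene lengths from the table labelled RNA, 67.9% to 69.4% of values above 0 were whole within 0.002 reads, and 4755 of 15749 genes used a fitted length. In a simulation of 2000 genes, 99.7% of 8769 values came out right. Of 25033 entries, 4 sharing a name were left out. Genes passing edgeR's filterByExpr on these reads were tested with limma (eBayes with trend, two-sided) on log2(RPKM / TMM factor + 1). In simulated data with a log2 fold change of 2, 178 of 181 changed genes received a correct limma call and 41 of 5450 unchanged genes a false one. For the table labelled RNA, counts went into edgeR (glmQLFTest). Hamp2 was tested with an exact permutation test.

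Named are the 10 iron genes, every called gene of each list, and the 2 genes with most reads where fewer than 2 of an iron list were called. No gene of the Kupffer cell and endothelium marker lists is named, and other exceptions are stated. A few items are not reported here. The genes and lists were chosen with earlier results of these data known. Alternatives were other scalings, filters, pseudocounts, thresholds and tools (edgeR, DESeq2), removal of a length trend, a replicate block, and leaving out each library. Windows of 28 bases were matched exactly to RefSeq GRCm38.p6. Intervals on reads cover counting error only. Fits used limma 3.58.1, edgeR 4.0.16 and DESeq2 1.42.0 in R 4.3.3, and the other steps Python 3.11.15 with scipy 1.17.1 and pandas 2.3.3.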

Additional observations from a re-analysis of the deposited data

How the results depend on the processing

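Fth1 was called in all 17 alternatives, Tfr2 in 12 and Ncoa4 in 10. Steap3 was called in the 15 that tested it, which is a description, since it passed the main filter through its HFD libraries alone. None of these 4 genes changed direction in any alternative. With the RPKM as deposited 235 genes were called higher and 651 lower, and 1 iron gene higher. A pseudocount of 5 gave 222 genes lower and 1 iron gene higher, and no filter gave 710 lower. At p under 0.001, 196 genes were called higher and 101 lower, with 1 iron gene in each direction. At an adjusted p under 0.05 the same 4 iron genes passed, beside 11.5% of all genes. Leaving out a library gave 268 to 574 genes higher and 143 to 707 lower, with 1 to 2 iron genes higher and 0 to 2 lower. In the table labelled RNA, no filter gave 988 genes lower and 1 iron gene higher, and leaving out a library gave 453 to 691 genes higher and 318 to 577 lower, with 1 to 3 iron genes higher and 1 to 2 lower. The uncalled values near 0 changed sign: Slc40a1 and Ireb2 were at -0.25 and -0.23 with the RPKM as deposited, and at -0.16 and -0.13 with no filter in the table labelled RNA. Without a library, Slc40a1 ran from -0.083 to 0.16, Ireb2 from -0.069 to 0.23 and Tfrc from -0.68 to 0.23, and in the table labelled RNA they ran from -0.089 to 0.16, -0.061 to 0.25 and -0.56 to 0.29. Apart from the smaller number of genes or libraries in some fits, the cause was not tested.

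No label ties the replicate numbers of the 2 groups to each other. The deviations of same-numbered libraries correlated at 0.14, 0.0036 and -0.019 over 4365 genes, low values that do not exclude a pairing. A block for the replicate number gave 397 calls higher and 340 lower, and 2 iron genes in each direction. In the table labelled RNA the block gave 486 higher and 373 lower. Depth limits the LYC values of Tfrc, Steap3 and Hamp2 most, with 24, 2 and 9 reads in all.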
